A study of Homo sapiens with 84 samples.

Results

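Homologous recombination and Fanconi repair genes were examined as 34 members, all of which were found by Ensembl identifier among the 58395 genes counted in each library. The study treated 2 squamous carcinoma cell lines with ligands of the EGF receptor (EGFR) and profiled them by 3′ RNA-seq, in which reads come from near the 3′ end of transcripts. Kyse30 is an esophageal line and FaDu a pharyngeal line. All cells, controls included, were kept without serum. They stayed untreated for 0, 6, or 72 h or were treated for 6 or 72 h with EGFlow (1.8 nM EGF), EGFhigh (9 nM EGF), EpEX (the extracellular part of EpCAM fused to an immunoglobulin Fc part), EGFhigh + EpEX, or Fc alone. Untreated cells served as controls for EGF and Fc as control for EpEX. The labels do not say whether replicates came from separate cultures, so p-values measure only the spread between these libraries.

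Homologous recombination repairs DNA double strand breaks from an intact copy of the sequence, mostly the sister chromatid, and is therefore tied to S and G2 phase. ATM and ATR signal the damage, the MRN complex and nucleases trim the ends, BRCA1, PALB2, and BRCA2 prepare the trimmed ends for strand invasion, and BLM with its partners takes the joined molecules apart again. The Fanconi proteins unhook crosslinks between DNA strands: a core complex marks FANCI and FANCD2 with ubiquitin, and the lesion is then passed on to recombination.

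The values rest on 43 Kyse30 libraries in 13 conditions of 3 or 4 libraries and on 20 FaDu libraries in 13 conditions of 1 or 2. Total counts on genes were 1944948 to 11759799 in Kyse30 and 6217938 to 12442349 in FaDu, so that 3 counts, the limit below which a gene was taken as not detected, stood for 0.255 to 1.54 and 0.241 to 0.482 CPM, the counts scaled to the library size. The FaDu libraries are replicates 3 and 4. Replicates 1 and 2, 21 further libraries, stood apart from them with a median Pearson correlation of 0.729 across 10678 genes, against 0.956 among replicates 3 and 4 and 0.769 between Kyse30 and FaDu replicates 3 and 4, and they enter only where stated. The epithelial markers EPCAM (112 to 305.6 CPM in Kyse30, 278 to 460.5 in FaDu) and PERP (366 to 1181 and 240 to 375 CPM) were present in every library, while the squamous keratin KRT5 was 0.671 to 7.91 CPM in Kyse30 and 42.7 to 599 CPM in FaDu. Of 8 markers of other cell types, CD3E, PTPRC, PECAM1, and DCN stayed at or below 0.72, 1.68, 0.78, and 0.379 CPM, and COL3A1 at or below 2.54 CPM. COL1A1 was detected in every library (7.07 to 27.7 CPM in Kyse30, 4.95 to 13.01 in FaDu), CD68 reached 11.5 CPM and the endothelial marker VWF 6.60 CPM. All 34 members passed the filter on low counts in both lines.

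After 72 h of EGFhigh, Kyse30 cells had lower values of all 34 repair genes, and 12 of them were called, all lower, against 3.16% of the 15350 genes tested that were called lower. A call needed an adjusted p of at most 0.05 and a log2 fold change (log2FC) beyond 0.5 in edgeR's quasi-likelihood test with Benjamini-Hochberg adjustment over all genes. The median log2FC of the members was -1.05, compared with -0.03 over all genes. Summed over the members, the 3 EGFhigh libraries had 524 to 729 CPM and the 3 untreated libraries 945 to 1235 CPM. The EGFhigh libraries are replicates 1, 3, and 4 and the untreated ones replicates 1, 2, and 3. For the shared numbers, the sum was 729 against 1021 CPM in replicate 1 and 524 against 945 CPM in replicate 3. All 3 EGFhigh values were below all 3 untreated values for 21 of 34 members, the 12 called ones included, as they were for 11.1% of all genes. In these bulk cultures, fewer cycling cells and less RNA per cell cannot be told apart.

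**Figure D1:**
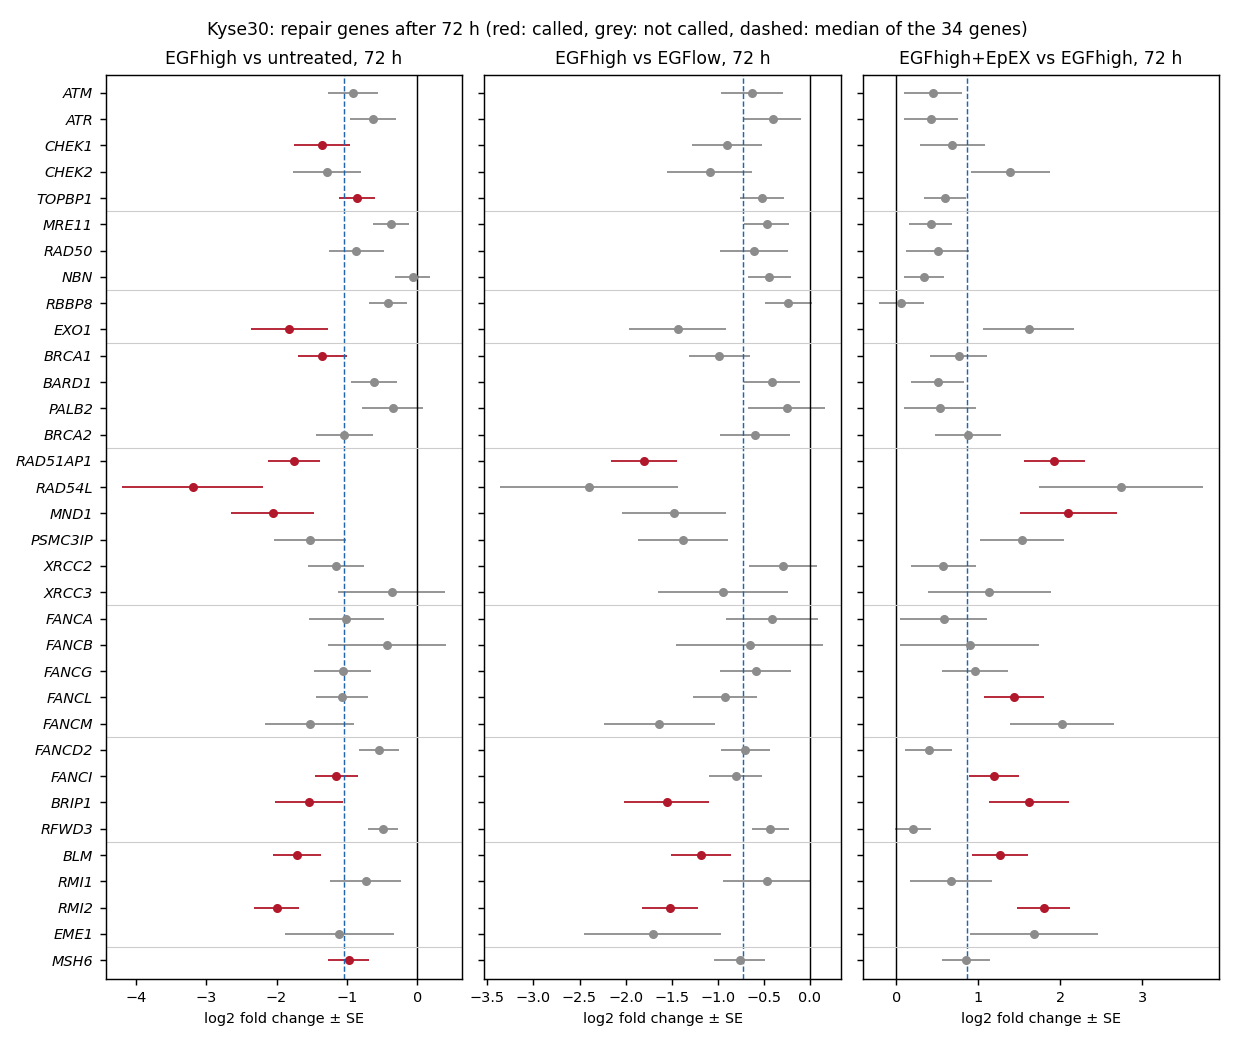
Log2 fold change ± SE of the 34 repair genes in Kyse30 at 72 h for EGFhigh against untreated cells, EGFhigh against EGFlow, and EGFhigh + EpEX against EGFhigh, in the order of their roles with grey lines between role groups. Red points were called, and the dashed lines mark the medians of -1.05, -0.73, and 0.86; all 34 points lie below 0 in the first and second panels and above 0 in the last, and the panels share the EGFhigh libraries.

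Dissolution of recombination intermediates held the lowest adjusted p of the module. RMI2 (ENSG00000175643, chromosome 16, 11345459 to 11351760, GRCh38), a stabilising subunit of the BLM helicase complex, had 62.1, 118, and 85.7 CPM in untreated cells and 29, 22.1, and 17.6 CPM with EGFhigh. Every EGFhigh library was thus below every untreated one, and RMI2 fell to 0.25 of its control level (SE 0.32 on the log2 scale, adjusted p = 6.32e-05, edgeR). BLM itself, the helicase mutated in Bloom syndrome (chromosome 15, 90717346 to 90816166), had 19.6, 27.6, and 20.8 CPM in untreated cells and 8.07, 5.73, and 7.51 CPM with EGFhigh, a log2FC of -1.71 ± 0.34. RMI1, the scaffold of the same complex (-0.73 ± 0.50), and EME1, a subunit of the resolving nuclease MUS81-EME1 (-1.11 ± 0.78), did not pass the test.

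Among the genes of strand invasion and exchange, 3 of 6 fell. RAD51AP1, which stimulates strand invasion, had 17.8, 21, and 24.8 CPM in untreated cells and 12.1, 2.95, and 4.25 CPM with EGFhigh (log2FC -1.75 ± 0.37). The first EGFhigh replicate was the highest of the 3 for this gene, as it was for CHEK1, TOPBP1, BRCA1, MND1, BRIP1, BLM, and RMI2. MND1, which with PSMC3IP forms an accessory complex of strand exchange, had 7.93, 5.89, and 3.97 CPM against 2.57, 0.174, and 1.56 CPM, the last 3 being 21, 1, and 11 counts. The chromatin remodeler RAD54L had 5.23, 2.03, and 5.95 CPM against 0.244, 0.174, and 0.993 CPM, the last 3 being 2, 1, and 7 counts. Values of 1 and 2 counts are under the limit of 3 counts. With so few reads its log2FC of -3.20 had an SE of 1.00. PSMC3IP (-1.53 ± 0.51) and the recombination mediators XRCC2 (-1.16 ± 0.39) and XRCC3 (-0.37 ± 0.76) were not called.

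Of the BRCA genes, BRCA1 was the called one. This ubiquitin ligase, which promotes end resection (chromosome 17, 43044295 to 43170327), had 54.9, 91.1, and 47.8 CPM in untreated cells and 41.1, 17.7, and 19.7 CPM with EGFhigh (log2FC -1.35 ± 0.35, adjusted p = 0.0118, edgeR). Its partner BARD1 (-0.61 ± 0.32), the bridging protein PALB2 (-0.35 ± 0.44), and the recombination mediator BRCA2 (-1.04 ± 0.40) were lower without passing the test.

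In the Fanconi pathway, calls were made among the genes acting on or after the ubiquitinated pair. FANCI, one subunit of that pair, had 38.6, 41.1, and 35.9 CPM in untreated cells and 17.4, 19.3, and 16.6 CPM with EGFhigh, a log2FC of -1.15 ± 0.30. The helicase BRIP1, a partner of BRCA1, had 19.5, 20.4, and 14.1 CPM against 10.1, 5.73, and 3.26 CPM (-1.54 ± 0.48). FANCD2 (-0.54 ± 0.28) was not called, nor was the ubiquitin ligase RFWD3 (-0.49 ± 0.22), the most abundant of this group, with 72.7, 70.3, and 60.1 CPM against 54.1, 42.6, and 52.3 CPM. None of the 5 core genes was called. Their log2FC values were -1.07 for FANCL, the ubiquitin ligase of the core, -1.53 for the translocase FANCM, -1.06 for FANCG, -1.01 for FANCA, and -0.43 for FANCB, with unadjusted p under 0.05 for FANCL, FANCM, and FANCG, as for 22 of 34 members and 19.4% of all genes. FANCL, the most abundant of the 5, had 26.9, 20.8, and 29.7 CPM in untreated cells and 15.2, 12.2, and 10.5 CPM with EGFhigh.

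Checkpoint signaling and resection changed in part. CHEK1, the kinase downstream of ATR, had 19.8, 23.9, and 17.3 CPM against 13, 4.86, and 6.66 CPM (log2FC -1.36 ± 0.40), and TOPBP1, the activator of ATR, had 85.6, 83.4, and 70.6 CPM against 55.7, 42.4, and 38.4 CPM (-0.85 ± 0.25). ATM (-0.92 ± 0.35), ATR (-0.63 ± 0.33), and CHEK2 (-1.28 ± 0.48) did not pass. The exonuclease EXO1, which resects ends over long distances, had 10.2, 4.97, and 6.35 CPM against 1.47, 3.13, and 1.7 CPM (-1.82 ± 0.55). RBBP8, which starts resection, had 74.8, 56.5, and 58.5 CPM against 63.7, 36.8, and 46.5 CPM, so that its groups overlapped (-0.41 ± 0.27).

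The MRN complex, which senses breaks, had no called member. MRE11, its nuclease, had 81.8, 121, and 86.7 CPM in untreated cells and 91, 81.3, and 58.1 CPM with EGFhigh, and these groups overlapped (-0.37 ± 0.26). RAD50 had a log2FC of -0.86 ± 0.39, and NBN one of -0.07 with a 95% confidence interval of -0.55 to 0.42. MSH6, the mismatch recognition protein and the most abundant member in Kyse30, had 115, 130, and 111 CPM against 57.6, 72.4, and 55.4 CPM (-0.98 ± 0.29, adjusted p = 0.0341, edgeR).

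**Figure D2:**
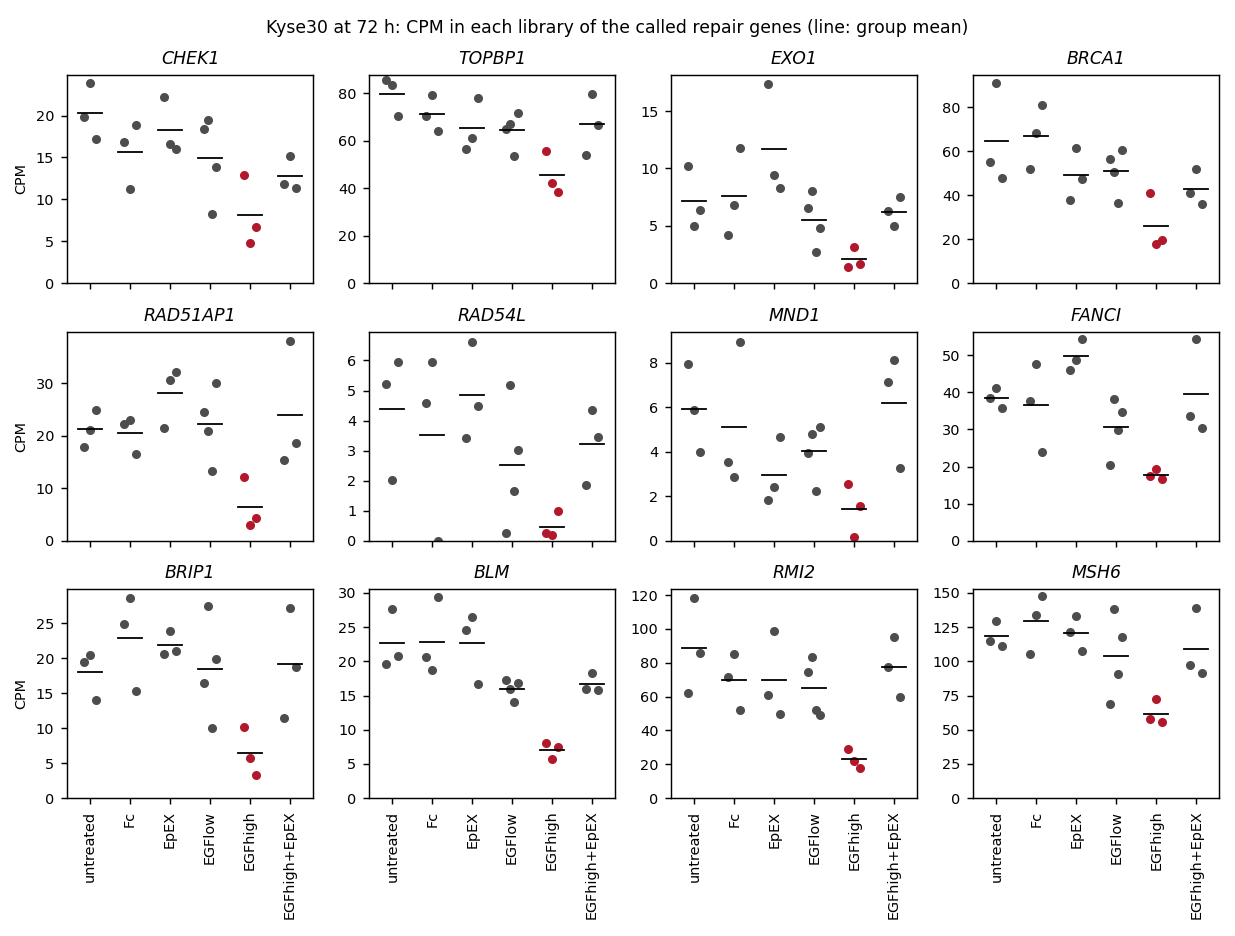
CPM in each Kyse30 library at 72 h (y axes, starting at 0) by treatment (x axes) for the 12 repair genes called lower under EGFhigh, with EGFhigh in red and group means as lines. For RMI2 the 3 EGFhigh libraries lie at 17.6 to 29 CPM and all libraries of the other 72 h conditions at 49.4 CPM or more.

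The calls depended on the number of libraries. RMI2, BLM, and RAD51AP1 remained called in 6 of 6 fits that left out 1 EGFhigh or untreated library. The other 9 were lost in 3 to 5 of these fits: 6 members were called without untreated replicate 1, 3 without untreated replicate 2, 6 without untreated replicate 3, 10 without EGFhigh replicate 1, 6 without EGFhigh replicate 3, and 6 without EGFhigh replicate 4. At least 31 of 34 members had a negative log2FC in each. With the 6 compared libraries alone in the fit, 4 were called. The last 500 bases of RAD54L, FANCI, MSH6, FANCL, FANCA, and PSMC3IP hold 409, 66, 106, 394, 337, and 500 bases of exons of genes on the opposite strand (LRRC41, POLG, FBXO11, VRK2, ZNF276, and MLX), and those of RAD50 hold 235 bases of a gene on the same strand (AC116366.3). The strand setting of the counting is not given in the sources used here, so reads of such pairs cannot be told apart.

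Genes of other pathways were compared with the same libraries. All 17 DNA replication genes had a negative log2FC (median -1.18), and 9 fell. Among these were the helicase subunit MCM2 (-2.42 ± 0.56, from 103 to 19.6 CPM), the GINS complex subunit GINS2 (-1.52 ± 0.32), and thymidylate synthase TYMS (-1.57 ± 0.36). PCNA, the sliding clamp, was at -1.20 ± 0.42 and was not called. Of 18 genes of cell cycle state, 6 fell, among them CDK1 (-1.60 ± 0.29), CCNB1 (-1.26 ± 0.26), CCNA2 (-1.82 ± 0.39), and the proliferation marker MKI67 (-1.33 ± 0.40), while E2F1 (-0.88 ± 0.49) and the cell cycle inhibitor CDKN1A (1.27 ± 0.47) did not pass. The summed level of the replication genes was 441 to 875 CPM in EGFhigh and 1139 to 1317 CPM in untreated libraries. That of the cell cycle genes overlapped, with 796 to 1161 and 847 to 1067 CPM. The cell cycle list had a median log2FC of -0.77, with 14 of 18 genes negative and 4 positive. Its sum includes genes that pointed up, such as CDKN1A, so it does not show the level of those that fell. The part of these values in the levels of the repair genes was not tested.

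Other repair genes moved less. Of 58 further genes of recombination and crosslink repair, 5 fell (median -0.30), among them the mediator MDC1 (-0.90 ± 0.24), the ubiquitin-conjugating enzyme UBE2T (-1.97 ± 0.57), and the helicase WRN (-0.90 ± 0.27). None of 10 end joining genes was called (median 0.11), with POLM at 0.69 ± 0.44, XRCC5 at 0.20 ± 0.17, and PRKDC at -0.37 ± 0.32. Of 14 nucleotide excision genes, CETN2 fell (-0.82 ± 0.20), ERCC1 rose (0.82 ± 0.22), and ERCC6 was at 0.75 ± 0.25. The medians are descriptions, and the lists were not tested against each other. Members and lists were chosen with earlier results of these data known, so the medians cannot show that the members respond more than other repair genes. Of 8 squamous epithelial markers, 6 had a positive and 2 a negative log2FC (median 0.34, lowest -1.14). KRT6A (4.66 ± 0.73) and SFN (1.67 ± 0.35) rose and KRT14 (3.40 ± 1.20) did not pass. The marker sum for other cell types was 27.6 to 34.03 CPM in EGFhigh and 11.0 to 15.1 CPM in untreated libraries. Of these markers, CD68, which lysosomes of many cells hold, was called higher (from 0.408 to 8.26 CPM) and COL1A1 was not (0.62 ± 0.42, from 12.0 to 19.0 CPM). VWF had 0 to 6.60 CPM in EGFhigh and 0 to 0.184 CPM in untreated libraries and COL3A1 0 and 0 to 0.992 CPM, and neither passed the filter on low counts. The part of these markers in the result was not tested.

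Promoters of the members were searched because genes of S phase are known to be driven by E2F factors. RefSeq promoters (GRCh38.p14, 250 bases before to 50 after the start) were at hand for 31 of the 34 members, without NBN, FANCI, and RMI2. Only 1 promoter per gene was searched, so other starts of a gene were not covered. For CHEK1, MRE11, and RBBP8, among others, the searched start lay inside the gene and not at its outer end. A gene without a match may therefore hold one at another start. The E2F letters searched were TTTCCCGC, TTTGGCGC, TTTCGCGC, and TTTGCCGC on either strand. A match was found in 7 of 31 members (22.6%) and in 3.33% of 27305 promoters. It was found in 4 of the 10 called genes with a promoter and in 3 of 21 others. The CCAAT box (CCAAT) was matched in 16 of 31 members (51.6%) and 35.7% of all promoters, and the CHR element (TTTGAA or TTTAAA) in 3 of 31 (9.68%) and 24.3%. The 6 windows below hold the E2F match within 60 bases before to 40 after the start, with the match in capitals, on the strand of the gene; the first 4 belong to genes that fell.
TOPBP1 (minus strand, chr3:133661902-133662001): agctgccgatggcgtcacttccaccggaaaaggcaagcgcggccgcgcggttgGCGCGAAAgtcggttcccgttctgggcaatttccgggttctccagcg
EXO1 (plus strand, chr1:241848144-241848243): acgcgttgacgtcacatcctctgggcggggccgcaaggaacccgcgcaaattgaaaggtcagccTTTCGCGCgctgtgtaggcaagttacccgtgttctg
MND1 (plus strand, chr4:153344628-153344727): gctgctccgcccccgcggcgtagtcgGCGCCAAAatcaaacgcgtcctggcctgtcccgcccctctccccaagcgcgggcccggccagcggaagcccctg
MSH6 (plus strand, chr2:47783085-47783184): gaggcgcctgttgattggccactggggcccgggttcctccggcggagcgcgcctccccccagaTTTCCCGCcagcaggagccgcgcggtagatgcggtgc
XRCC2 (minus strand, chr7:152676102-152676201): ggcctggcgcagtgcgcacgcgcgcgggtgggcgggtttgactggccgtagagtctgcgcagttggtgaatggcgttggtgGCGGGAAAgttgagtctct
FANCD2 (plus strand, chr3:10026377-10026476): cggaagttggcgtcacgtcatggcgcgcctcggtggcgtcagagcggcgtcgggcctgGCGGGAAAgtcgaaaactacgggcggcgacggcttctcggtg

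The matches began 7 bases before the start in TOPBP1, 34 before in MND1, and 2 before in FANCD2, and at base 5 after it in EXO1, 4 in MSH6, and 22 in XRCC2. FANCA had its match 172 bases before the start. A match is a description of the letters, and binding was not measured.

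EGF dose was compared at 72 h to separate EGFhigh from EGFlow. With EGFlow, none of the 34 members was called against untreated cells, as no gene of 15350 was (0%), and 1 member, XRCC2 (-0.86 ± 0.36), and 2.86% of all genes had an unadjusted p under 0.05 in edgeR. The median log2FC was -0.22. EGFhigh against EGFlow, with the same 3 EGFhigh libraries as above, gave negative values for all 34 members (median -0.73), and 4 were called lower, against 1.71% of all genes. RMI2 had 74.3, 83.6, 52.3, and 49.4 CPM with EGFlow, all above its 3 EGFhigh values (-1.52 ± 0.31). RAD51AP1 had 24.4, 20.9, 13.3, and 30.1 CPM with EGFlow, also without overlap (-1.80 ± 0.36), as had BLM with 17.2, 16, 14.1, and 16.8 CPM (-1.18 ± 0.32). In all, 7 members and 5.87% of genes were lower without overlap. BRIP1 (-1.55 ± 0.46) was called although its lowest EGFlow value of 9.96 CPM was below the highest EGFhigh value of 10.1 CPM. BRCA1 was at -0.98 ± 0.33 with an adjusted p of 0.0878 in edgeR. RMI2 and RAD51AP1 remained called in 7 of 7 fits that left out 1 library, and BLM and BRIP1 in 2. The count was 2 without EGFhigh replicate 3, without EGFhigh replicate 4, without EGFlow replicate 1, and without EGFlow replicate 2. With EGFhigh, all 17 replication genes were also lower than with EGFlow (median -1.01), and 6 were called.

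Addition of EpEX to EGFhigh was compared at 72 h, since the study asked how EpEX modulates the response to EGF. No condition held EGFhigh with Fc, so EpEX and its Fc part cannot be told apart in this comparison. All 34 members were higher with EGFhigh + EpEX than with EGFhigh alone (median 0.86, all genes 0.03), and 7 were called higher, against 1.86% of all genes. These were RMI2 (1.797 ± 0.323), BLM (1.26 ± 0.34), RAD51AP1 (1.93 ± 0.37), MND1 (2.10 ± 0.59), FANCI (1.18 ± 0.30), BRIP1 (1.62 ± 0.48), and FANCL (1.44 ± 0.37). RMI2 had 77.6, 95.3, and 59.5 CPM with the combination, and FANCL had 31.8, 38.4, and 29.7 CPM. RAD51AP1 had 15.4, 38, and 18.6 CPM and BLM 16, 18.3, and 15.8 CPM, and none of the 7 genes overlapped with EGFhigh alone. Of all members 14 were higher without overlap, as were 9.96% of all genes. BRCA1, with 40.9, 52.1, and 36.1 CPM, was not called (0.76 ± 0.35), nor was MSH6 (0.85 ± 0.29). This comparison uses the same 3 EGFhigh libraries as the one with untreated cells, so the opposite signs are not independent of each other. The EGFhigh + EpEX libraries are replicates 1, 2, and 3, whereas the EGFhigh ones are replicates 1, 3, and 4. Summed over the members, replicate 2 was the highest of the combination, with 1164.5 CPM. For the shared numbers, the sum was 892 against 729 CPM in replicate 1 and 843 against 524 CPM in replicate 3. RMI2 remained called in 6 of 6 fits without 1 library, RAD51AP1 in 5, and BLM in none. Without EGFhigh replicate 3 the count was 3, without EGFhigh replicate 4 it was 4, and without EGFhigh + EpEX replicate 2 it was 1. All 17 replication genes were also higher with the combination than with EGFhigh alone (median 0.99), and 5 were called.

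Against Fc, neither EGFhigh + EpEX nor EpEX alone changed a member at 72 h in Kyse30, and no gene of 15350 was called in either comparison (0% and 0%). The median log2FC of the members was -0.13 and -0.03, and 1 member had an unadjusted p under 0.05 in each, as had 3.92% and 3.61% of all genes. RMI2 was at 0.15 for EGFhigh + EpEX against Fc, with an interval of -0.46 to 0.76, and a missed threshold does not show equal levels.

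Over all 13 Kyse30 conditions, EGFhigh at 72 h had the lowest mean for 29 of 34 members (85.3%), compared with 14.2% of all genes. The exceptions were MRE11 and XRCC3, lowest with EpEX at 6 h, ATM and RAD50, lowest with EGFlow at 6 h, and FANCB, lowest with Fc at 6 h. Untreated cells at 0 h had the highest mean for 12 members, against 6.53% of genes. Medians over the 43 libraries ran from 3.33 CPM for RAD54L to 97.2 CPM for MSH6.

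**Figure D3:**
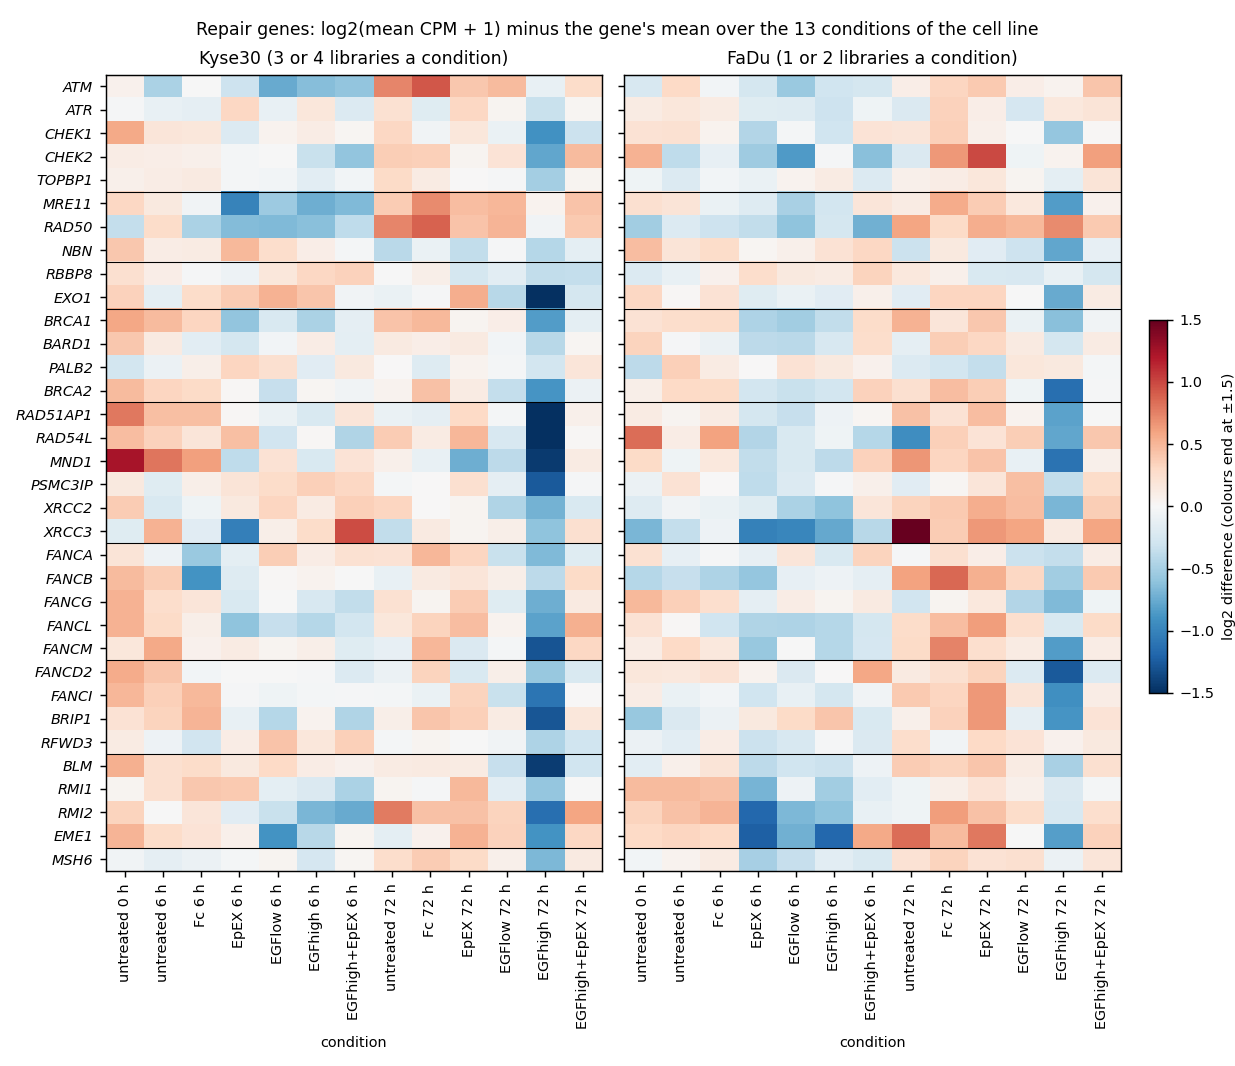
Repair genes (rows, in role order) in the 13 conditions (columns) of Kyse30 and FaDu, as log2(mean CPM + 1) minus the mean of the gene over the conditions of that line. The EGFhigh 72 h column is the lowest of Kyse30 for 29 of 34 genes; in FaDu that column is 1 library.

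Time under EGFhigh was compared next. From 6 to 72 h of EGFhigh, 8 members fell (6.25% of genes fell) and 1 rose (6.08% rose). EXO1 (-2.33 ± 0.54), PSMC3IP (-1.91 ± 0.49), BLM (-1.66 ± 0.33), MND1 (-1.64 ± 0.57), RAD51AP1 (-1.57 ± 0.36), BRIP1 (-1.45 ± 0.46), FANCI (-1.11 ± 0.29), and RFWD3 (-0.65 ± 0.20) fell, and MRE11 (0.79 ± 0.24) rose. The count was 5 without EGFhigh 6 h replicate 3, 4 without EGFhigh 72 h replicate 3, and 15 without EGFhigh 72 h replicate 1. Of the 17 replication genes, 10 fell over this time (median -1.06, against -0.61 for the members). Whether the response to EGFhigh differed between 72 and 6 h was tested as an interaction. None of the 34 members was called, against 1.01% of all genes, while 32 of 34 had a more negative response at 72 h (median -0.72), as had 49.3% of all genes, and 10 members and 13.7% of all genes had an unadjusted p under 0.05 in edgeR. BLM came nearest, with a difference of -1.56 ± 0.46 and an adjusted p of 0.0841 in edgeR. DESeq2 called 2 members in this interaction, but its share over all genes is not given here, so this count cannot be weighed.

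Control cells had few called members over time. Between 0 and 6 h without treatment, no gene was called (0%), and none of the members had an unadjusted p under 0.05 in edgeR, against 2.31% of genes. From 6 to 72 h, 238 genes were called in untreated and 346 in Fc cells, with 1 member in each. ATM rose in untreated cells from 12.9, 8.73, and 11.3 CPM to 27.5, 28.5, and 23.6 CPM (1.30 ± 0.36, against 0.775% of genes that rose). RAD50 rose under Fc from 8.74, 8.95, and 13.3 CPM to 23.9, 27.7, and 32.6 CPM (1.43 ± 0.40, against 1.24%). Each of these calls was lost in 6 of 6 fits that left out a library, with adjusted p of 0.088 to 0.267 for ATM and 0.0574 to 0.203 for RAD50 in edgeR.

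At 6 h, calls among the members were few. In Kyse30, MRE11 had 55, 113, and 77.9 CPM in untreated cells and 32.9, 50.1, 40.6, and 53.3 CPM with EGFhigh (-0.91 ± 0.24, against 1.21% of genes called lower). RMI2 fell with EGFhigh + EpEX and had 78.8, 51.7, and 44.6 CPM with Fc and 36.6, 27.7, 23.9, and 31.6 CPM with the combination (-0.998 ± 0.292, against 1.51%). EGFlow called none (1.5% of genes in either direction), nor did EpEX (0.0261%). The unadjusted p was under 0.05 for 5 members with EGFlow and 3 with EpEX in edgeR, near the background of 13.7% and 9.45% of all genes. With EGFhigh, 27 of 34 members had a negative log2FC (median -0.32), against 53.8% of all genes. In that comparison 7 members, all lower, and 15.2% of all genes had an unadjusted p under 0.05 in edgeR. BRCA1 had a mean of 33.9 CPM with EGFhigh and 66.9 CPM in untreated cells, with overlapping groups, and was not called. MRE11 lost its call in 5 of 7 fits without 1 library, those without untreated replicate 3 or 4 or EGFhigh replicate 1, 2, or 3, and RMI2 lost its call in 6 of 7.

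FaDu cells had RMI2 and EME1 lower at 6 h under several ligands. Most members had a negative log2FC, 29 of 34 with EGFlow, 27 with EGFhigh, and 32 with EpEX (medians -0.38, -0.23, and -0.38), against 51.4%, 50.5%, and 51.0% of all genes. Summed over the members, replicate 4 was lower than replicate 3 in all 5 conditions with both at 6 h. RMI2 had 79.8 and 56.9 CPM in untreated cells, 30.1 and 31.9 CPM with EGFlow (-1.13 ± 0.21, against 0.899% of genes called lower), and 35.8 and 29.4 CPM with EGFhigh (-1.05 ± 0.21, against 0.774%). With Fc it had 76 and 68 CPM and with EpEX 24.1 and 19 CPM (-1.72 ± 0.22, adjusted p = 0.000123, edgeR, against 1.04%). EME1 had 15.4 and 16.9 CPM in untreated cells and 6.72 and 3.45 CPM with EGFhigh (-1.65 ± 0.36), and 13.5 and 18.3 CPM with Fc and 6.34 and 3.41 CPM with EpEX (-1.71 ± 0.37). With EGFlow EME1 had 8.41 and 6.32 CPM and was not called (-1.13 ± 0.35, adjusted p = 0.0997, edgeR). The 2 EGF comparisons share their controls. EGFhigh + EpEX at 6 h was 1 library, with 46.4 CPM of RMI2 and 19.4 CPM of EME1. The last 500 bases of EME1 hold 246 bases of LRRC59 exons on the other strand.

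**Figure D4:**
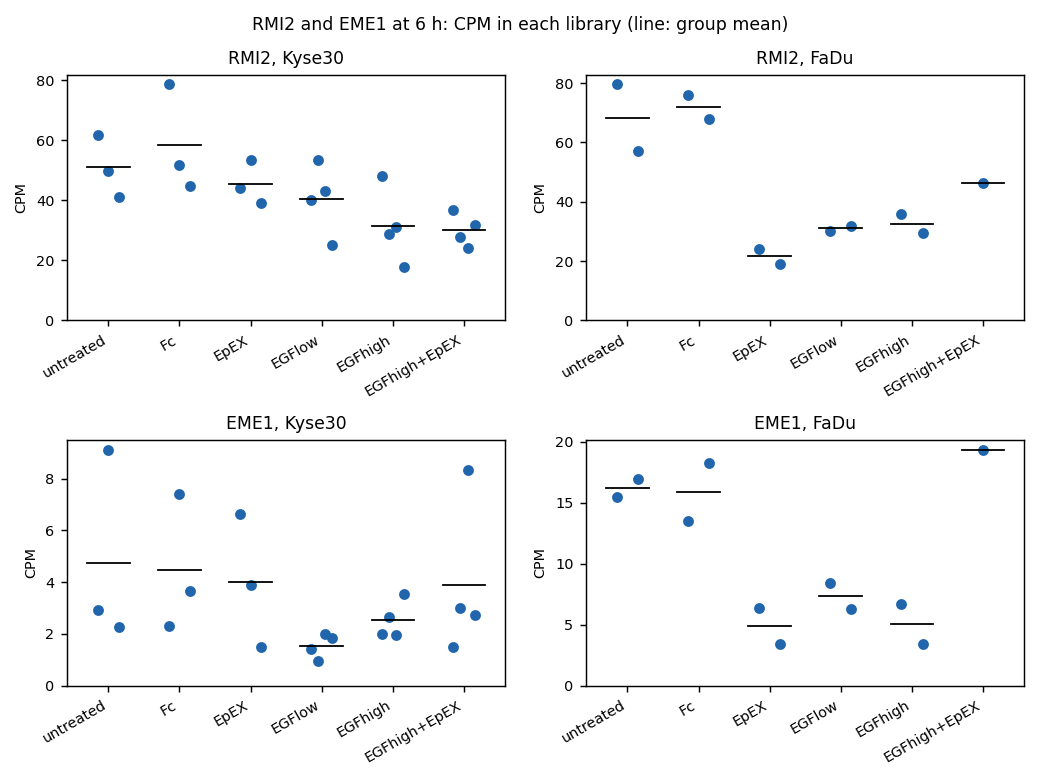
CPM of RMI2 and EME1 in each library at 6 h (y axes, starting at 0) by treatment (x axes) in Kyse30 and FaDu, with group means as lines. In FaDu, RMI2 lies at 56.9 to 79.8 CPM in untreated and Fc libraries and at 19 to 35.8 CPM with EpEX, EGFlow, and EGFhigh.

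With 2 libraries a group, the FaDu calls rested on few values. RMI2 under EpEX remained called in 4 of 4 fits that left out 1 library, RMI2 under EGFlow and EGFhigh in 2 each, EME1 under EpEX in 2, and EME1 under EGFhigh in 1. Without untreated replicate 3 no member was called with EGFlow or EGFhigh, and without untreated replicate 4 1 was called with EGFhigh. Without treated replicate 4 the counts were 0 for EGFlow, 0 for EGFhigh, and 1 for EpEX. With all 41 libraries labelled FaDu in the fit, no gene was called in any of the 3 comparisons, and under EGFhigh the log2FC turned to 0.13 for RMI2 and 0.79 for EME1. Whether the response to EGFhigh at 6 h differed between Kyse30 and FaDu was tested in a joint fit, and no member was called (0.0611% of genes), nor did any have an unadjusted p under 0.05 in edgeR, against 4.91% of all genes.

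At 72 h, EGFhigh in FaDu could be read from replicate 4 alone, so the values carry no replicate check. 29 of 34 members were lower than in untreated replicate 4 (median log2 difference -0.51, all genes -0.05), and 17 were below -0.5, as were 30.4% of all genes. The ratio of treated to untreated CPM was 0.268 for MND1 (106 and 352 counts, 95% interval 0.214 to 0.334), 0.28 for EME1, 0.367 for FANCD2, 0.372 for BRCA2, 0.392 for FANCI, and 0.441 for BRCA1. These intervals cover counting error only. RMI2 had a ratio of 0.868, and PALB2 and ATR had ratios of 1.26 and 1.29. XRCC3, with a ratio of 0.269, had 65.4 CPM in the untreated library and 5.45 to 30.4 CPM in the other FaDu libraries. Its exons share 5756 bases with KLC1 on the other strand, with 0 of them in its last 500 bases. EpEX against Fc in replicate 4 gave 14 of 34 members lower and 1 below -0.5, compared with 49.1% and 15.4% of all genes.

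EGFhigh + EpEX against Fc at 72 h in FaDu called no member (0.818% of genes in either direction), and 4 members, all lower, and 6.78% of all genes had an unadjusted p under 0.05 in edgeR. From 6 to 72 h under Fc, FANCB, a core subunit, rose from 7.52 and 11.9 CPM to 27.5 and 24.3 CPM (1.44 ± 0.31, against 0.974% of genes that rose). This call was lost without Fc 6 h replicate 3, Fc 72 h replicate 3, or Fc 72 h replicate 4, and with all 41 libraries.

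Untreated Kyse30 cells had lower levels of many members than untreated FaDu cells at 6 h. In the joint fit 13 of 34 members were lower and none higher, against 10.4% of 19634 genes called lower and 12% called higher. BLM had 17.7, 32.2, and 23.9 CPM in Kyse30 and 114 and 111 CPM in FaDu (-2.19 ± 0.31, adjusted p = 1.262e-07, edgeR). PALB2 followed, with 11.2, 8.26, and 8.58 CPM against 49.3 and 25 CPM (-1.99 ± 0.42), then ATM (-1.36 ± 0.37), XRCC2 (-1.32 ± 0.39), and FANCI with 59.6, 57.8, and 33.6 CPM against 134 and 115 CPM (-1.31 ± 0.29). CHEK1 (-1.19 ± 0.38), BRCA2 (-1.18 ± 0.39), FANCG (-1.06 ± 0.38), FANCD2 (-0.99 ± 0.29), ATR (-0.92 ± 0.33), MSH6 (-0.85 ± 0.30), RBBP8 (-0.80 ± 0.28), and RFWD3 (-0.72 ± 0.24) were also lower. The MRN genes were not called, and CHEK2 had the largest difference in the other direction (1.18), with 21.8, 13.2, and 7.88 CPM against 5.7 and 6.85 CPM. The named pseudogenes of CHEK2 in the annotation number 4, and reads shared with them may have been left out. BLM and FANCI remained called in 5 of 5 fits that left out 1 library. Without FaDu replicate 3 the count was 2, without FaDu replicate 4 it was 7, and without Kyse30 replicate 4 it was 4. With all 41 libraries labelled FaDu it was 2. Cell line and library set cannot be told apart here.

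**Figure D5:**
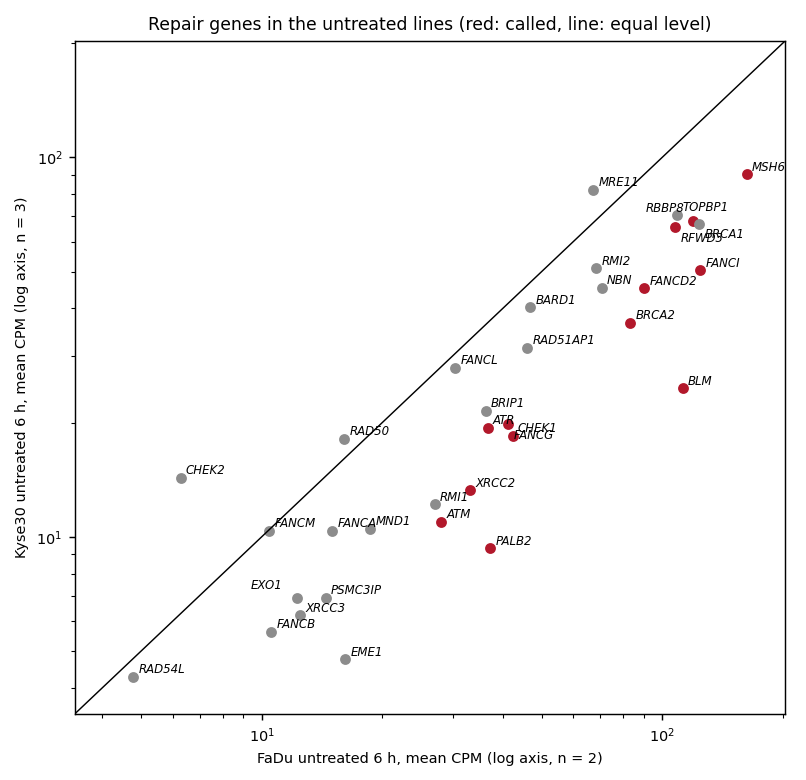
Mean CPM of the 34 repair genes in untreated cells at 6 h, FaDu (x axis, n = 2) against Kyse30 (y axis, n = 3), on log axes with the line of equal level. The 13 called genes, in red, all lie below the line, with BLM at 112 and 24.6 CPM.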

How the data were processed

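The authors prepared QuantSeq 3′ FWD libraries and deposited 1 table per library of counts, whole numbers of reads per gene that were neither normalized nor pooled. The submitters' processing notes name STAR, HTSeq, and GRCh38, whereas versions, annotation, strand setting, and use of molecular identifiers are not given in the sources used here. Reads that matched several places (24.6 to 51.3% of the tallied reads in the libraries used) and reads in no gene are not in these counts, which lowers values of genes with near copies. PCR duplicates may be counted, so counting intervals and limits cover counting error only.

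Symbols were joined from GENCODE release 29 (57754 of 58395 identifiers). Members and lists were chosen with earlier results of these data known. Libraries were grouped by the line, ligand, and hours that their labels give. Counts were tested with edgeR 4.0.16 in R 4.3.3 (TMM, filterByExpr by group with minimum count 10 and total 15, quasi-likelihood F test, SE as log2FC over the root of F) in 1 fit for Kyse30 (15350 genes), 1 for FaDu replicates 3 and 4 (16022 genes), and 1 for both (19634 genes), each with the spread shared over its groups. P-values were adjusted over all genes by Benjamini-Hochberg. A gene was called at an adjusted p up to 0.05 where its log2FC was also beyond 0.5 in either direction. CPM are on the TMM scale of all 63 libraries. The study's methods name DESeq2 for this step. Conditions with 1 library were given no test.

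Genes named are the 34 members, MCM2, PCNA, MKI67, E2F1, and CDKN1A, and the 3 genes of each list with the lowest adjusted p in Kyse30 EGFhigh against untreated cells at 72 h. A further gene of this rule is not reported here. Values per library are given for members called there and for the most abundant member of each role. Further genes, values, and overlapping neighbours were named after the values were seen. Alternatives were DESeq2 1.42.0, RLE size factors, plain library size, no filter on low counts, a mean of at least 5 CPM, no log2FC threshold, the compared groups alone, the replicate number as a block, untreated cells as control of EpEX, all 41 libraries labelled FaDu, and each library left out in turn. Before use, the test was run on simulated counts with known changes. These were drawn without a replicate effect and without a spread of each gene's own, so the run does not cover those.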

Additional observations from a re-analysis of the deposited data

Results flagged for a closer look

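In the Kyse30 groups of 4 libraries, 136 combinations of member and group were checked for a library far from the other 3, and 8 were found, where chance gives about 7. EGFlow at 72 h had 2 of them in replicate 3: MRE11 at 65.0 CPM with the others at 116 to 121 CPM, and FANCD2 at 19.6 CPM with the others at 39.5 to 42.7 CPM. EGFhigh + EpEX at 6 h had 3: MND1 at 12.2 CPM in replicate 3 (others 4.26 to 5.16), XRCC2 at 33.3 CPM in replicate 3 (others 15.3 to 18.0), and FANCL at 28.1 CPM in replicate 2 (others 15.1 to 16.2). EGFhigh at 6 h had RFWD3 at 50.4 CPM in replicate 1 (others 85.0 to 90.9) and BLM at 33.4 CPM in replicate 3 (others 18.0 to 19.4). EGFlow at 6 h had PSMC3IP at 17.7 CPM in replicate 2 (others 6.21 to 8.06). The causes were not tested.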

How the results depend on the processing

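Of 781 refits of a member's call, 569 kept the direction and the call, 210 kept the direction and lost it, and 2 reversed. EGFhigh against untreated Kyse30 cells at 72 h gave 4 to 15 called members over the alternatives other than leaving out a library, with negative values for all members tested, and RMI2, BLM, FANCI, and MSH6 were called in all 8 of them. Plain library size moved the median of all genes to -0.18 there and the median of the members to -1.21, so the members stayed lower by about the same amount. With only the compared groups in the fit, which leaves fewer libraries, the called members numbered 4 for EGFhigh at 72 h, 1 against EGFlow, 2 for EGFhigh + EpEX against EGFhigh, 5 for EGFhigh from 6 to 72 h, 0 for Fc from 6 to 72 h, 2 for EGFhigh and 0 for EGFhigh + EpEX at 6 h in Kyse30, and 0 for EGFhigh and 1 for EpEX in FaDu.

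The cause of the following changes was not tested, and the shares over all genes are not given beside them. DESeq2 called 2 members for EGFhigh and 2 for EGFhigh + EpEX at 6 h in Kyse30, 2 in the interaction of EGFhigh with time, and in FaDu 2 for EGFlow, 4 for EpEX, and 2 for Fc over time. No filter on low counts gave 2 for EGFhigh at 6 h and 0 for untreated cells over time in Kyse30, and 2 for EGFlow and 4 for EpEX in FaDu. A mean of at least 5 CPM gave 2 for EGFhigh + EpEX at 6 h in Kyse30, and 2 for EGFlow and 2 for Fc over time in FaDu. Plain library size gave 0 for untreated Kyse30 cells over time, and 2 for EGFlow, 4 for EpEX, and 2 for Fc over time in FaDu, where RLE size factors also gave 2. Untreated cells as control gave 0 for EGFhigh + EpEX at 6 h in Kyse30. All 41 libraries labelled FaDu gave 0 for EGFlow, EGFhigh, EpEX, and Fc over time and 2 between the lines, and reversed EME1 (0.79) and RMI2 (0.13) under EGFhigh.

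Replicate numbers were not taken to mark pairs, since over all genes deviations of same-numbered libraries correlated by 0.0633 on average in Kyse30 (lowest -0.131) and 0.0713 in FaDu (lowest -0.0362). Libraries with different numbers correlated by -0.0216 on average in Kyse30 and -0.0713 in FaDu. The FaDu value adds nothing, since the deviations of 2 libraries from their group mean are opposite, which fixes it from the first. The members' summed level nonetheless moved with the number: replicate 4 was the lower in 5 of 5 FaDu conditions at 6 h. In Kyse30 at 72 h replicate 2 was highest and replicate 3 lowest in 5 of the 5 conditions that hold each. At 6 h in Kyse30, replicate 3 was highest and replicate 4 lowest in 5 of the 6 conditions that hold each. The replicate block called 10 members for EGFhigh at 72 h. It gave 1 for EGFlow, 3 for EGFhigh, and 2 for EGFhigh + EpEX at 6 h in Kyse30. In FaDu it gave 3 for EGFlow, 4 for EpEX, and 2 for Fc over time, and between the lines 22. That last count set Kyse30 at the level of replicate 4 and FaDu at that of replicate 3. It depends on this choice, since each replicate lies within 1 line, and says nothing on the difference between the lines.

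Leaving out 1 library gave 3 to 10 called members for EGFhigh at 72 h, 2 to 4 against EGFlow, 1 to 5 for EGFhigh + EpEX against EGFhigh, 4 to 15 for EGFhigh over time, 0 to 1 for its interaction, 0 for untreated and Fc cells over time, and 0 to 1 for EGFhigh and for EGFhigh + EpEX at 6 h in Kyse30. In FaDu it gave 0 to 1 for EGFlow, 0 to 2 for EGFhigh, 1 to 3 for EpEX, and 0 to 1 for Fc over time, and between the lines 2 to 13. A group left with 1 library was assumed to vary like the others. In the joint fit these refits kept the dispersion of the full fit. At this depth genes with a few counts per library, such as RAD54L, XRCC3, FANCB, and EME1 in Kyse30, had SE of 0.755 to 1.00 at 72 h, so that their values are the least precise.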
